A study of Danio rerio with 4 samples.

Results

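The genes described are zebrafish *zranb3* and 8 related genes of the SNF2 family of DNA-dependent ATPases (*smarcal1*, *hltf*, *shprh*, *rad54l*, *smarca2*, *smarca4a*, *smarca5* and *chd2*). They were chosen by name, with earlier results of these data known, and all 9 were found among the 42298 genes of the deposited tables. RNA-seq was carried out on mCherry-positive cells sorted by FACS from dissociated whole larvae at 5 dpf (days postfertilization), with 2 libraries from *alms1* mutants and 2 from wild type. The mutants are labelled *alms1*-/- and carried Tg(ins:mCherry), and the wild-type larvae carried the same reporter with no *alms1* mutation in their labels. The reporter, which all 4 libraries share, places mCherry under the insulin promoter, so that the sort was designed to enrich β-cells. No library of unsorted cells is among the 4, so enrichment was not measured. The mutant allele is not given in the sources used here. The cells were sorted from many pooled larvae, and it is not stated whether the replicates of a genotype were separate sorts, so that the p-values measure only the spread between these libraries, which may be technical. The study was concerned with the zebrafish ortholog of human *ZRANB3* in type 2 diabetes, and the labels set *alms1* mutants against wild type without giving a purpose for that comparison.

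SNF2 proteins use ATP to move along double-stranded DNA, and the members fall into those that act mainly on damaged or replicating DNA and those that act mainly on nucleosomes. In human cells ZRANB3 is recruited to stalled replication forks by polyubiquitinated PCNA and SMARCAL1 by the single-stranded DNA binding protein RPA, and both can anneal strands and reverse forks. HLTF and SHPRH are also ubiquitin ligases that extend ubiquitin chains on PCNA, and RAD54L acts in homologous recombination. SMARCA2 and SMARCA4 are alternative motors of the SWI/SNF remodelling complexes, SMARCA5 is a motor of ISWI complexes, and CHD2 is a chromodomain remodeller.

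The libraries held 42761199 and 48938853 reads on genes in the mutants, against 50467517 and 47766482 in wild type. The markers of the sorted cell type were present at low levels. The 20 β-cell genes examined took 0.0297% and 0.0321% of the reads in the mutants and 0.0164% and 0.0133% in wild type, and none of them was at 0 in any library. Insulin itself (*ins*) had 534 and 447 reads in the mutants, against 20 and 61 in wild type. By the test used below *ins* was called higher (log2 fold change 3.10, adjusted p = 0.00758). The other insulin gene, *insb*, had 864 and 807 reads in the mutants, against 151 and 16 in wild type. It was called higher too (3.03, adjusted p = 0.0136). Of the 20 genes 5 were higher and 1 was lower, where 19.2% of all genes tested were called higher and 24.3% lower. Among the 20, *pdx1*, a defining transcription factor, was not called (log2 fold change 0.66, adjusted p = 0.284). Markers of other cell types differed between the genotypes. Skin markers, 12 in number, made up 0.592% and 0.613% of all reads in the mutants, against 4.68% and 3.41% in wild type, and 11 of them were lower by the test used below. The 16 skeletal muscle markers took 1.06% and 0.877% in the mutants, against 0.322% and 0.265% in wild type, and 11 were higher. The 15 acinar markers in the files took 0.509% and 0.364% in the mutants, against 0.0878% and 0.106% in wild type, and 13 were higher. The 12 liver markers took 0.0891% and 0.0706% in the mutants, against 0.0177% and 0.0199% in wild type, and 10 were higher. The 6 erythroid markers in the files took 3.07% and 2.01% in the mutants, against 0.893% and 1.32% in wild type, and 1 was higher. The 13 neuron markers took 0.0792% and 0.0776% in the mutants, against 0.0619% and 0.0618% in wild type, and 3 were lower. None of these markers was at 0 in any library. The part of these markers in the results below was not tested. The targeted gene *alms1* had 10.4 and 23.1 CPM (the reads of a gene scaled to a common total of reads on genes) in the mutants, against 22.8 and 17.4 in wild type, so that the genotypes overlapped in CPM. After the scaling used for the test below, they did not overlap (8.98 and 18.4 in the mutants, against 24.9 and 23.1 in wild type). The log2 fold change of *alms1* was -0.81 (SE 0.37, adjusted p = 0.104), and a mutant allele can leave transcript abundance as it was, so this is no check of the labels.

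Within a library the members differed widely in level. Levels are compared between genes as reads per kb of span, because the deposited tables count reads over a gene from its start to its end, introns included. By this measure *chd2* ranked first of the 9 in every library, and *smarca4a*, *hltf* and *smarca5* took places 2 to 4 in every library. The other 5 genes (*smarca2*, *shprh*, *zranb3*, *smarcal1* and *rad54l*) took the lower places, and their order changed from library to library. *zranb3* was at place 7 and 8 in the mutants and at place 9 and 8 in wild type. Its reads per kb were 1.80 and 0.564 times those of *smarcal1* in the 2 mutant libraries and 0.769 and 1.35 times in the 2 wild-type libraries, so that these neighbours had no fixed order. The reads per kb of *zranb3* were 0.0754 and 0.103 of those of *chd2* in the mutants and 0.0253 and 0.0222 in wild type.

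**Figure D1:**
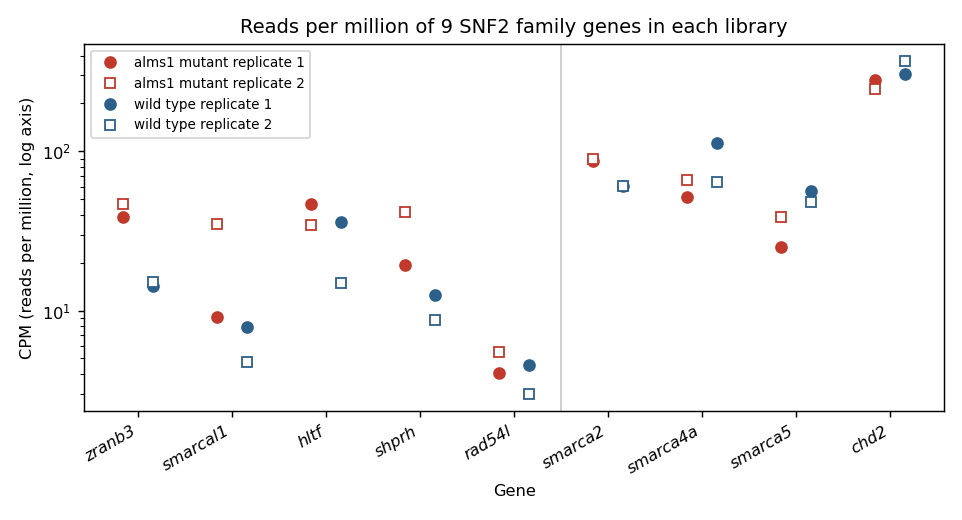
CPM (log axis) of the 9 genes in each library, with *alms1* mutant libraries in red to the left and wild-type libraries in blue to the right for each gene; filled circles are replicate 1 and open squares replicate 2. Both mutant libraries of *zranb3* (38.7 and 46.7 CPM) lie above both wild-type libraries (14.2 and 15.1 CPM), while the mutant libraries of *smarcal1* (9.12 and 35.1 CPM) lie far apart.

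*zranb3* had more reads in both mutant libraries than in either wild-type library. It is encoded on chromosome 22, minus strand, from 12189387 to 12305251 (GRCz10), a span of 115865 bp with 2 annotated transcripts, and no other annotated gene overlaps it. It had 1656 and 2287 reads in the mutants, against 717 and 722 in wild type, and at least 99.7% of them were uniquely mapped in each library. These reads correspond to 14.3 and 19.7 reads per kb in the mutants, against 6.19 and 6.23 in wild type. Relative to the library total, *zranb3* had 38.7 and 46.7 CPM in the mutants, against 14.2 and 15.1 in wild type. The exact Poisson 95% intervals were 36.9 to 40.6 and 44.8 to 48.7 CPM in the mutants and 13.2 to 15.3 and 14.0 to 16.3 CPM in wild type, and they cover counting error only. The intervals of the 2 wild-type libraries overlapped, and those of both mutant libraries lay above them. TMM scaling sets the libraries to a common level over most genes. After TMM scaling *zranb3* had 33.6 and 37.2 CPM in the mutants, against 15.5 and 20.1 in wild type. On this scale *zranb3* rose in the mutants by a log2 fold change of 0.99 (SE 0.27, adjusted p = 0.0176, edgeR, quasi-likelihood F test, Benjamini-Hochberg over all genes tested). The call was lost when either mutant library was left out (1.05, adjusted p = 0.0651 without the first, and 0.91, adjusted p = 0.111 without the second). In a bulk sample, a change in RNA per cell cannot be told apart from a change in the share of the cells that hold the transcript. The counts run over the whole span, introns included, and 0 reads were counted across exon junctions in these libraries. Reads of the spliced transcript therefore cannot be told apart from other reads within the span.

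The level of *zranb3* was low for a gene of its span in every library. Protein-coding genes of 40 to 160 kb number 4378, and among them its reads per kb stood at percentile 11.97 and 11.1 in the mutants and 7.31 and 15.7 in wild type. They were 0.465 and 0.4997 times the median of those genes in the mutants and 0.298 and 0.391 times in wild type. They were also 1.08 and 1.04 times the 10th percentile in the mutants and 0.860 and 1.30 times in wild type. The rank of *zranb3* in its span class thus overlapped between the genotypes, although its CPM did not.

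**Figure D2:**
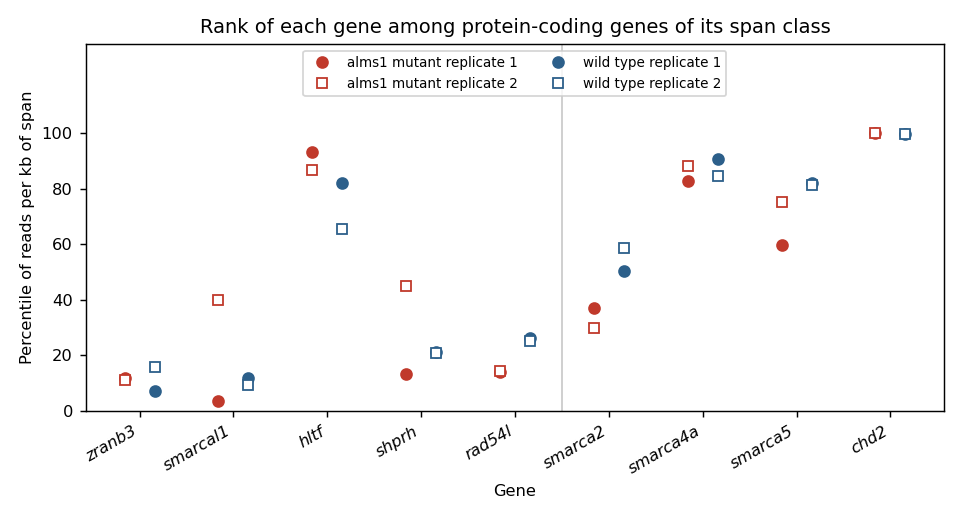
Percentile of the reads per kb of span of each gene among the protein-coding genes of its span class (10 to 40 kb for *hltf*, *rad54l*, *smarca4a* and *smarca5*, 40 to 160 kb for the rest) in each library, with mutants in red on the left and wild type in blue on the right. *zranb3* lies between 7.31 and 15.7 in all 4 libraries, and *chd2* lies at 99.5 or above in each.

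The other members that act at replication forks did not pass the test. *smarcal1*, on the minus strand of chromosome 9 from 52902017 to 52951078, had 7.95 and 35.0 reads per kb in the mutants, against 8.05 and 4.61 in wild type. One mutant library therefore lay at the wild-type level and the other well above it. In CPM these values were 9.12 and 35.1 in the mutants, against 7.83 and 4.73 in wild type, and after TMM scaling the genotypes overlapped. The log2 fold change was 1.27 with a wide standard error of 0.55 (adjusted p = 0.0890), and it became 1.90 when mutant replicate 1 was left out (adjusted p = 0.0118) and 0.09 when mutant replicate 2 was (adjusted p = 0.915). Of its reads 68.7% and 89.2% were uniquely mapped in the mutants and 85.6% and 78.8% in wild type. Its last 4078 bp overlap *nme8* on the other strand, and the library kit does not mark strand. *nme8* had 388 and 475 reads in the mutants, against 86 and 98 in wild type, and rose by 1.76 on the log2 scale (SE 0.45, adjusted p = 0.0148), with 45.8% of its reads uniquely mapped. How many reads the 2 genes share was not tested.

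*shprh*, whose human counterpart adds ubiquitin chains to PCNA, lies on the plus strand of chromosome 17 from 7377203 to 7432161. It had 15.0 and 37.1 reads per kb in the mutants, against 11.4 and 7.59 in wild type, which is 19.3 and 41.7 CPM in the mutants and 12.5 and 8.73 CPM in wild type. The genotypes did not overlap, but the mutant libraries differed by a factor of 2.16 in CPM. The log2 fold change of 0.98 (SE 0.37) missed the threshold (adjusted p = 0.0577). It passed with uniquely mapped reads (0.98, adjusted p = 0.0475), with DESeq2 (0.98, adjusted p = 0.0347) and without mutant replicate 1 (1.38, adjusted p = 0.0255), and it was 0.41 without mutant replicate 2 (adjusted p = 0.507). For *smarcal1* and *shprh* alike, mutant replicate 2 held the high value.

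*hltf*, the other ligase of the group, lies on the minus strand of chromosome 2 from 25288406 to 25306374 and had the highest level of the 5 fork and recombination genes in every library. It had 111.7 and 93.6 reads per kb in the mutants, against 101.6 and 39.7 in wild type. The first wild-type library lay among the mutants and the second below them. The log2 fold change of 0.19 (SE 0.36, adjusted p = 0.684) was 0.87 without wild-type replicate 1 (adjusted p = 0.0441) and -0.21 without wild-type replicate 2 (adjusted p = 0.603). Its last 780 bp overlap *gyg1a* on the plus strand, which had 2126 and 2610 reads in the mutants, against 2221 and 2883 in wild type (log2 fold change -0.59, SE 0.28, adjusted p = 0.120).

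*rad54l*, on the plus strand of chromosome 6 from 3313541 to 3331241, was the member with the fewest reads. It had 174 and 267 reads in the mutants, against 231 and 142 in wild type, or 4.07 and 5.46 CPM in the mutants and 4.58 and 2.97 CPM in wild type. The genotypes overlapped, and the log2 fold change was -0.19 (SE 0.46, adjusted p = 0.760). No difference passed the threshold, which does not show that the genotypes were alike.

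Of the 4 nucleosome remodellers, 3 fell in the mutants, where 24.3% of all genes tested were called lower. None of the 3 was called when library totals replaced TMM scaling. *smarca5*, an ISWI motor, lies on the plus strand of chromosome 1 from 52157701 to 52186216. It had 37.7 and 66.8 reads per kb in the mutants, against 99.7 and 80.2 in wild type, and 25.1 and 38.9 CPM in the mutants, against 56.4 and 47.9 in wild type. Both mutant libraries were below both wild-type libraries, and *smarca5* fell by 1.25 on the log2 scale (SE 0.26, adjusted p = 0.00625). Without mutant replicate 1 the log2 fold change was -1.03 and the call was lost (adjusted p = 0.0650).

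*smarca4a*, a SWI/SNF motor on the plus strand of chromosome 3 from 19099291 to 19131507, had 68.1 and 100.1 reads per kb in the mutants, against 176.1 and 95.2 in wild type. In CPM the values were 51.3 and 65.9 in the mutants and 112.4 and 64.2 in wild type, so that the genotypes overlapped by this measure. After TMM scaling they did not (44.5 and 52.4 in the mutants, against 123.0 and 85.3 in wild type), and *smarca4a* fell by 1.104 on the log2 scale (SE 0.26, adjusted p = 0.00966). The call was lost without either mutant library (adjusted p = 0.0891 when the first was left out and 0.0564 when the second was).

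*smarca2*, the alternative motor, was not called on the TMM scale. It lies on the plus strand of chromosome 5 from 44538772 to 44683990 and has the longest span of the members, 145219 bp. It had 25.5 and 30.1 reads per kb in the mutants, against 21.0 and 19.8 in wild type. In CPM the values were 86.6 and 89.2 in the mutants and 60.3 and 60.1 in wild type, without overlap. After TMM scaling the genotypes overlapped, and the log2 fold change was 0.00 (SE 0.22, adjusted p = 0.996). With library totals in place of TMM it was 0.55 (adjusted p = 0.0776), where the median of all genes tested was 0.57. By reads per kb, *smarca4a* stood 2.67 and 3.33 times as high as *smarca2* in the mutants, against 8.40 and 4.81 times in wild type. These ratios did not overlap, and their difference was not tested. The 2 genes differ in span, 32217 bp for *smarca4a* and 145219 bp for *smarca2*. Genes of 10 to 40 kb had a median log2 fold change of -0.09, and those of 40 to 160 kb 0.51. How much of the difference in ratio goes with span was not tested.

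*chd2*, on the minus strand of chromosome 18 from 24946940 to 25010178, was the most abundant member. It had 189.4 and 192.0 reads per kb in the mutants, against 244.7 and 280.4 in wild type, and 280.2 and 248.0 CPM in the mutants, against 306.6 and 371.2 in wild type. By either measure both mutant libraries lay below both wild-type libraries, and in reads per kb the mutant libraries lay close together. *chd2* fell by 0.91 on the log2 scale (SE 0.28, adjusted p = 0.0274), and the call was lost when the first mutant library (adjusted p = 0.121) or the second (adjusted p = 0.258) was left out. In reads per kb it stood at or above percentile 99.5 of its span class in each library.

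All 9 members passed the filter on low counts. In all, 1 was called higher in the mutants (*zranb3*), 3 were called lower (*smarca4a*, *smarca5* and *chd2*) and 5 were not called. Of the 28079 genes tested, 19.2% were called higher and 24.3% lower. Of the members 2 lay higher in both mutant libraries after TMM scaling and 3 lower, against 39.1% and 37.8% of all genes tested. The median log2 fold change of the members was 0.00, close to the 0.03 of all genes tested. It was 0.98 for the 5 fork and recombination genes and -1.01 for the 4 nucleosome remodellers. With 9 members these counts say nothing of the members as a set.

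**Figure D3:**
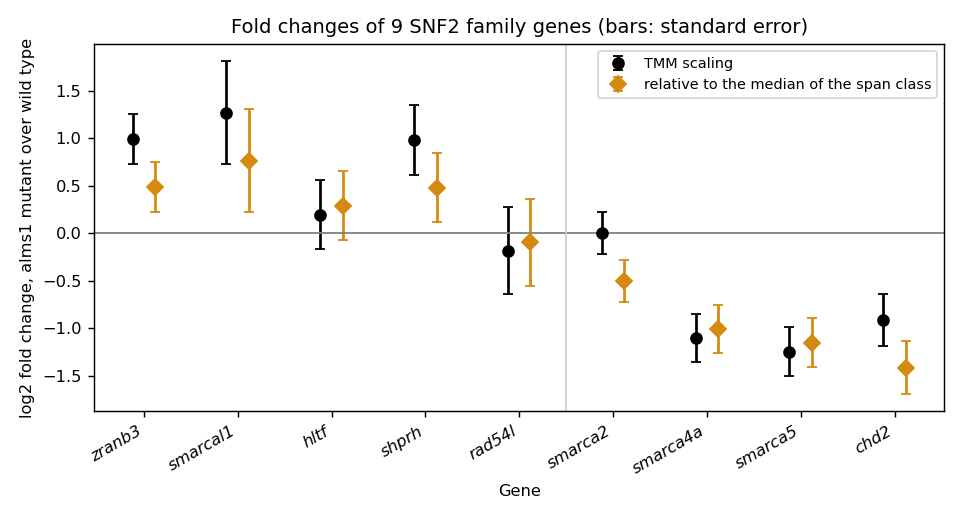
Log2 fold change of each gene (*alms1* mutant over wild type) with its standard error, from edgeR with TMM scaling (black circles) and relative to the median of the genes in the same span class (orange diamonds). The change of *zranb3* is 0.99 on the first scale and 0.48 on the second, and *smarca4a*, *smarca5* and *chd2* are below 0 on both.

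The span of a gene moved with its change between the genotypes. Among genes of 40 to 160 kb, the class of *zranb3*, *smarcal1*, *shprh*, *smarca2* and *chd2*, 39.4% were called higher in the mutants and 12.6% lower, and the median log2 fold change was 0.51. Among genes of 10 to 40 kb, the class of the other 4 members, 16.8% were called higher and 27.7% lower, with a median of -0.09. Under 10 kb 9.87% were called higher and 27.4% lower, and over 160 kb 70.3% were called higher and 2.33% lower. The share of reads on genes over 160 kb was 22.4% and 23.4% in the mutants, against 9.97% and 8.36% in wild type. In the class of *zranb3*, the 10th percentile of protein-coding genes lay at a reads per kb of 13.2 and 19.0 in the mutants, against 7.20 and 4.79 in wild type.

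**Figure D4:**
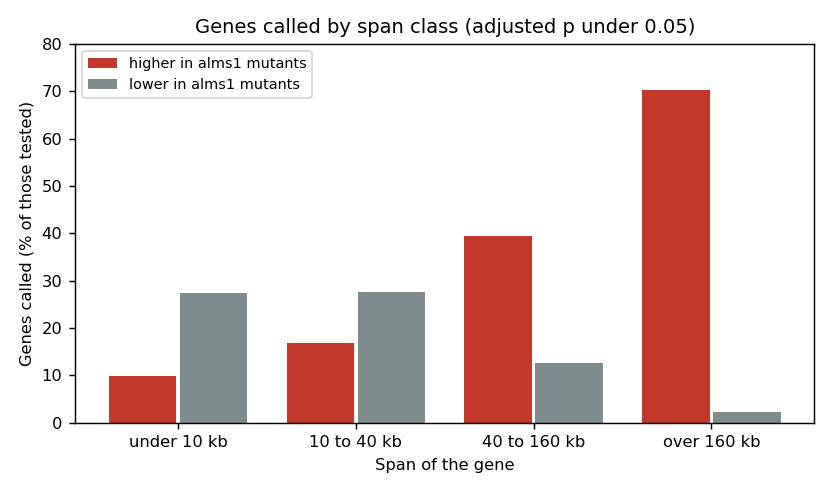
Share of the genes tested that edgeR called higher (red) or lower (grey) in *alms1* mutants, in 4 classes of gene span. The share called higher is 9.87% under 10 kb and 70.3% over 160 kb.

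Set against the median of their own span class, a scale added after the values had been seen, the members gave a different split. *zranb3* then had a log2 fold change of 0.48 (SE 0.26, adjusted p = 0.171) and was not called, *smarcal1* had 0.76 (adjusted p = 0.280) and *shprh* 0.48 (adjusted p = 0.315). The log2 fold change of *zranb3* lay at percentile 69.3 of its class. *smarca5* (-1.16, adjusted p = 0.0103), *smarca4a* (-1.01, adjusted p = 0.0163) and *chd2* (-1.42, adjusted p = 0.00615) were still called lower, and *chd2* lay at percentile 9.29 of its class. *smarca2* had -0.50 (adjusted p = 0.101).

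The falls of the remodellers depended on the scaling. With library totals in place of TMM the median of all genes tested was 0.57 on the log2 scale, and 69.3% of the calls were of higher genes, compared with 44.0% after TMM. On that scale *zranb3* had a log2 fold change of 1.54 (adjusted p = 0.00665) and *shprh* 1.525 (adjusted p = 0.0264), and both lay above that median. *smarca5* had -0.70 (adjusted p = 0.0912), *smarca4a* -0.59 (adjusted p = 0.162) and *chd2* -0.36 (adjusted p = 0.237), so that none of the 3 was called. On the log2(TPM + 1) scale *chd2* had 0.10, a change of sign, with a median of 0.69 over all genes tested.

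Other genes of the same pathways were counted in 6 lists, chosen with earlier results of these data known. The counts stand beside 19.2% of all genes tested called higher and 24.3% called lower. Of 25 further SNF2 family genes tested after TMM scaling, 1 was higher and 6 were lower, a share of lower genes near that of all genes, with a median log2 fold change of -0.28. The one higher was *chd5*, a chromodomain remodeller gene best known from neurons, with 30.5 and 52.4 CPM in the mutants, against 12.6 and 9.30 in wild type (log2 fold change 1.38, SE 0.31, adjusted p = 0.00823). The falls included *chd4b*, a motor of the NuRD complex (-1.75, SE 0.31, adjusted p = 0.00325), *atrx*, a heterochromatin remodeller (-1.26, SE 0.23, adjusted p = 0.00373), and *rad54l2* (-1.35, SE 0.25, adjusted p = 0.00415). *chd4b* had 60.8 and 51.3 CPM in the mutants, against 105.1 and 150.4 in wild type. Relative to the median of each span class 0 of these 25 genes were higher and 12 were lower. On that scale 4231 of all 28079 genes tested were higher and 6506 lower.

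Of 30 genes of fork remodelling, protection and damage tolerance tested, 4 were higher and 11 lower, with a median of -0.48. *atr*, the kinase that responds to stalled forks, had 33.3 and 47.9 CPM in the mutants, against 9.43 and 8.06 in wild type, and rose by 1.67 on the log2 scale (SE 0.28, adjusted p = 0.00288). The Fanconi anemia gene *fancd2* (1.63, SE 0.43, adjusted p = 0.0162) and the RecQ helicase gene *wrn* (0.83, SE 0.23, adjusted p = 0.0212) also rose. *rad18*, whose human counterpart is a ubiquitin ligase for PCNA, was the other gene of the list that rose (0.82, SE 0.24, adjusted p = 0.0232). It was named after its values were seen. *ube2na* and *ube2nb*, which encode the conjugating enzyme that builds the chains, had log2 fold changes of -1.95 (SE 0.23, adjusted p = 0.000852) and -2.08 (SE 0.25, adjusted p = 0.000884), and *usp1*, which encodes the protease that removes ubiquitin from PCNA, had -2.10 (SE 0.25, adjusted p = 0.000869). *ube2na* had 45.2 and 45.6 CPM in the mutants, against 119.1 and 121.4 in wild type. Among the falls *rad50*, named after its values were seen, had 0 reads in both mutant libraries and 151 and 100 in wild type, none of them uniquely mapped.

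Of 20 genes of homologous recombination tested, 3 were higher and 3 lower, with a median of 0.20. *bard1* (1.33, SE 0.26, adjusted p = 0.00503) and *mus81* (0.95, SE 0.29, adjusted p = 0.0296) rose. *bard1* had 45.7 and 50.7 CPM in the mutants, against 12.9 and 13.3 in wild type. *palb2* (-2.31, SE 0.60, adjusted p = 0.0152) and *rmi1* (-1.98, SE 0.52, adjusted p = 0.0154) fell. Both falls rest on few reads. *palb2* had 34 and 64 reads in the mutants, against 247 and 117 in wild type. *rmi1* had 92 and 72 in the mutants, against 242 and 242 in wild type.

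**Figure D5:**
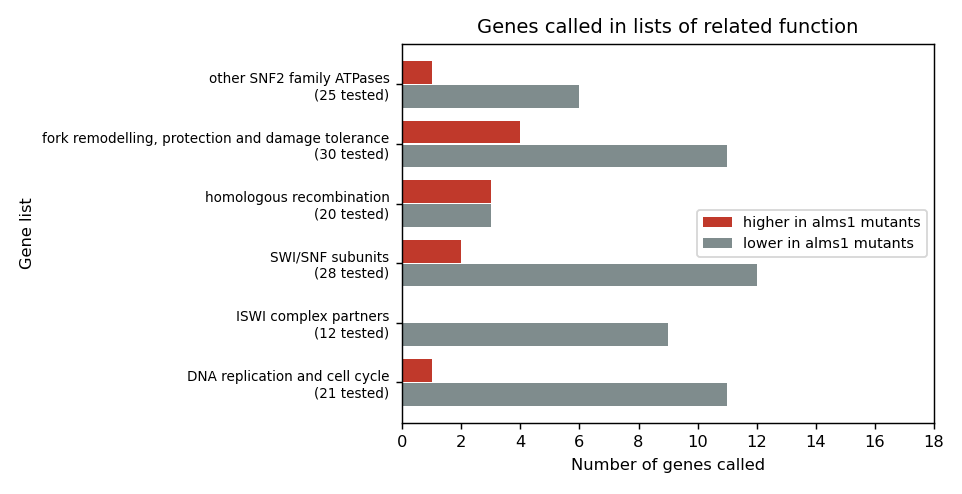
Number of genes called higher (red) or lower (grey) in *alms1* mutants in 6 lists of related function, without the 9 members. The ISWI partners hold 0 higher and 9 lower genes of 12 tested, and the recombination list holds 3 of each of 20 tested.

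Subunits that work with the remodellers were counted beside the same 19.2% higher and 24.3% lower of all genes tested. Of 28 SWI/SNF subunit genes 2 were higher and 12 lower (median -0.66), and of 12 ISWI partner genes 0 were higher and 9 lower (median -1.21). The neuronal subunit genes *actl6b* (2.71, SE 0.43, adjusted p = 0.00225) and *dpf1* (1.08, SE 0.24, adjusted p = 0.00764) were the SWI/SNF genes that rose, and *actl6b* had 14.9 and 21.1 CPM in the mutants, against 2.58 and 1.30 in wild type. *smarcd1* (-1.68, SE 0.22, adjusted p = 0.00118), *bcl7a* (-1.82, SE 0.25, adjusted p = 0.00138) and *bcl7bb* (-2.08, SE 0.31, adjusted p = 0.00175) fell. Of the ISWI partners *baz2a* (-1.90, SE 0.25, adjusted p = 0.00113), *rbbp4* (-1.68, SE 0.23, adjusted p = 0.00122) and *bptf* (-1.60, SE 0.22, adjusted p = 0.00132) fell with the smallest adjusted p. No ISWI partner had a log2 fold change above -0.55, where the motor gene *smarca5* had -1.25. However, *smarca1*, also an ISWI motor gene, had -0.52 (SE 0.28, adjusted p = 0.157) and was not called.

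Among 21 replication and cell-cycle genes 1 was higher and 11 were lower (median -0.71). The polymerase gene *pole* rose (1.06, SE 0.26, adjusted p = 0.0127). The genes *mcm7* (-2.14, SE 0.23, adjusted p = 0.000663), *mcm6* (-1.68, SE 0.23, adjusted p = 0.00137) and *mcm2* (-2.14, SE 0.30, adjusted p = 0.00142) of the replicative helicase fell. *mcm7* had 20.2 and 22.3 CPM in the mutants, against 67.8 and 61.4 in wild type. Over the 6 lists, which share no gene with the members, 136 genes were tested, of which 11 were higher and 52 lower, against 19.2% and 24.3% of all genes tested. Span moved with direction here too. Of the 35 list genes of 40 to 160 kb 9 were higher and 9 lower (39.4% and 12.6% of all genes of that class). Of the 71 of 10 to 40 kb 2 were higher and 26 lower (16.8% and 27.7% of the class). Of the 30 under 10 kb 0 were higher and 17 lower (9.87% and 27.4% of the class). Relative to the median of each span class 4 list genes were higher (*atr*, *bard1*, *mus81* and *actl6b*) and 58 were lower. On that scale 4231 of all 28079 genes tested were higher and 6506 lower.

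Neither gene beside *zranb3* on chromosome 22 was called higher. The nearest protein-coding gene at lower coordinates, *ccnt2b*, had 40.6 and 59.3 CPM in the mutants, against 107.5 and 84.3 in wild type (log2 fold change -1.48, SE 0.24, adjusted p = 0.00239), and it fell. The nearest at higher coordinates, *r3hdm1*, lies 13454 bp away, spans 47802 bp and had 41.6 and 49.9 CPM in the mutants, against 31.5 and 55.4 in wild type (log2 fold change -0.51, SE 0.35, adjusted p = 0.253). With library totals in place of TMM the sign of *r3hdm1* turned (0.08, adjusted p = 0.863), and it was not called. Relative to the median of its span class *r3hdm1* was called lower (-1.02, adjusted p = 0.0473). Its log2 fold change was -0.86 without wild-type replicate 1 and 0.14 without wild-type replicate 2.

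Among 17188 protein-coding genes the nearest by the root mean square difference of log2 reads per kb, after TMM scaling, were *umodl1* (0.06), *dync2h1* (0.10) and *vtnb* (0.11). *umodl1*, with a span of 26650 bp, had 13.6 and 18.8 reads per kb in the mutants, against 6.004 and 6.004 in wild type. *dync2h1*, with a span of 254832 bp, had 14.3 and 20.4 reads per kb in the mutants, against 6.29 and 5.47 in wild type. It rose by 1.11 on the log2 scale (SE 0.23, adjusted p = 0.00582). In its span class, over 160 kb, 70.3% of genes were called higher and the median log2 fold change was 1.01. The nearest to *smarcal1* were *ppm1h* (0.18), *faah2b* (0.24) and *taar19d* (0.26), each with its highest value in mutant replicate 2. *ppm1h* had 9.46 and 31.7 reads per kb in the mutants, against 7.54 and 5.29 in wild type. *taar19d* had only 9 and 52 reads in the mutants, against 8 and 7 in wild type, so its pattern rests on few reads. *umodl1* (log2 fold change 0.97, adjusted p = 0.0892) and *vtnb* (1.03, adjusted p = 0.133) were not called. All these genes were picked for their likeness in the same 4 libraries. Their fold changes and their highest libraries thus follow from the choice and are no separate evidence. With 4 libraries such likeness rests on few points and was not tested.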

How the data were processed

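The 4 libraries were prepared by the authors from Nextera XT tagmentation, a kit without strand marks, and sequenced as paired reads on an Illumina HiSeq. The authors aligned them with CLC Genomics Server to the genome that the submitters' processing notes name GRCz10. Neither the annotation nor any read filter is given in the sources used here. The deposited counts are whole reads per gene, for all and for uniquely mapped reads, with 1 library per file. The deposited TPM and RPKM are the authors' length-scaled reads, set relative to each library's total or to its mapped reads. RPKM were not used further. For 99.4% of genes the deposited exon length, taken as another value of the files, equals the span, so intron reads are included. The values used are all exon reads or, for the 15924 genes without an annotated exon, all gene reads.

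Genotypes were compared with edgeR 4.0.16 in R 4.3.3 (TMM, filterByExpr, quasi-likelihood F test, Benjamini-Hochberg adjustment, threshold 0.05) on all 4 libraries without a block. Each fold change divides mutant by wild type, and its standard error is the size of the log2 fold change over the square root of F. edgeR's common biological coefficient of variation came to 0.340. Tested on simulated counts with few changed genes, the estimates lay near the folds put in, but most changed genes were missed, so that an uncalled gene is not shown to be unchanged. In these data 19.2% of genes were called higher and 24.3% lower, far more than were changed in the simulation. The simulation also used the common coefficient of variation for every gene, whereas the spread of real genes differs from gene to gene. The share missed there is therefore no measure of the share missed here. Alternatives used limma 3.58.1 on log2(TPM + 1) or log2(TPM + 0.1), DESeq2 1.42.0, other scalings, filters and reads, a replicate block, and each library left out. Each library's total and read counts set the width of the Poisson intervals, which are exact at 95% and cover counting error only. The tests also take in the spread between libraries. Percentiles are over protein-coding genes. Chromosome numbers come from symbols shared with the RefSeq gene table of GRCz12tu, at least 98.2% of which lie on the chromosome assigned; coordinates are those of the files. No sequence is shown.

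The named genes are the members, *alms1*, genes overlapping a member, the neighbours of *zranb3*, the 3 genes nearest in pattern to *zranb3* and to *smarcal1*, and from each list up to 3 called genes in each direction with the smallest adjusted p and no overlap between genotypes. Members and lists were chosen with earlier results of these data known. Some genes that the rule names are not reported here. *ins*, *insb*, *pdx1*, *rad18*, *rad50* and *smarca1* were named after their values were seen. Python 3.11.15 was used with scipy 1.17.1 for intervals, matplotlib 3.10.9 for plots, and numpy 2.4.6 with pandas 2.3.3 for tables.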

Additional observations from a re-analysis of the deposited data

How the results depend on the processing

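The direction of *zranb3* was the same in all 18 alternatives, and it passed the threshold in 14. It missed it on log2(TPM + 0.1) (1.84, adjusted p = 0.0554), relative to the median of its span class (0.48) and without either mutant replicate, and over the left-out libraries its log2 fold change was 0.91 to 1.19. *smarca4a* was called in 13 alternatives, *smarca5* in 14 and *chd2* in 11, *shprh* in 8, *smarcal1* in 4, *hltf* in 2, and *smarca2* and *rad54l* in 0. On log2(TPM + 1) and log2(TPM + 0.1) the sign of *chd2* changed (0.10 and 0.10), and it was not called there.

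Members called higher and lower were 2 and 0 with library totals, 3 and 2 with upper quartile factors, 4 and 0 on log2(TPM + 1), 0 and 0 on log2(TPM + 0.1), 0 and 3 relative to the span class, and 2 higher with at least 50 reads, with uniquely mapped reads and with DESeq2. Leaving out 1 library gave 0 to 4 higher and 0 to 3 lower. Of all 28079 genes tested, 8145 were higher and 3605 lower with library totals, and 7540 and 5165 with upper quartile factors. On log2(TPM + 1) 9871 were higher and 1648 lower, and on log2(TPM + 0.1) 8768 and 1495. Relative to the span class 4231 were higher and 6506 lower. With at least 50 reads 5727 of 24760 genes tested were higher, with uniquely mapped reads 5436 of 26839, and with DESeq2 6350 of 29249. Among genes of 10 kb or more 4261 of 16039 were lower. Leaving out 1 library gave 2310 to 6769 higher and 3975 to 6563 lower. List genes higher and lower were 18 and 30 with library totals, 17 higher with upper quartile factors, 20 and 5 on log2(TPM + 1), 5 lower on log2(TPM + 0.1), 4 higher relative to the span class, and 4 to 14 higher and 30 to 51 lower with 1 library left out. The share of calls that were higher was 44.0% in the comparison reported, 59.3% with upper quartile factors, 85.7% on log2(TPM + 1) and 85.4% on log2(TPM + 0.1). The cause of these differences was not tested.

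The mean percentile of *zranb3* by reads per kb among all protein-coding genes was 24.0 in the mutants and 18.8 in wild type. By CPM it was 79.9 in the mutants and 59.5 in wild type, within its span class 11.5 in both, and with uniquely mapped reads 28.2 in the mutants.

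Whether the replicate numbers pair the samples is not stated. Over genes the deviations of same-numbered libraries correlated at -0.0962. That value cannot decide the question, because libraries handled together need not deviate alike. With the replicate number as a block 4842 genes were higher and 6136 lower, 1 member was higher and 2 were lower, and *chd2* missed the threshold (adjusted p = 0.0657). With 2 libraries a genotype the spread of 1 member is poorly known, and *rad54l* had the fewest reads.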
